A study of Mus musculus with 12 samples.

Results

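NICD1/Akt livers were compared with control livers at 3 weeks in 6 of the 12 liver libraries of the series, 3 in each group. The genes described are those with at least 1 CPM (a gene's counts scaled to a common library size) in 3 or more of the 6 libraries, 13052 of 21807 genes in the table of deposited counts. The 3 NICD1/Akt libraries (1, 2 and 3) came from C57BL/6J mice injected at 5 weeks of age, by hydrodynamic tail vein injection (HTVi), with 10 µg of a plasmid for NICD1, 10 µg of a plasmid for myr-AKT and 0.8 µg of a plasmid for the Sleeping Beauty transposase, and their tissue is labelled as CCA tumor of the liver 3 weeks after HTVi. The 3 control libraries (10, 11 and 12) are labelled WT liver of the same stage, from mice of the same strain that are taken here as not injected, so that the transgenes cannot be told apart from the injection or the transposase. The methods name male mice. HTVi reaches only part of the hepatocytes, so a tumor-bearing liver still holds cells without transgenes. Whether each library is a mouse of its own is not stated, and p-values therefore measure no more than the spread among the libraries of a group.

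NICD1 is the intracellular part of the Notch1 receptor, which enters the nucleus, binds RBPJ and turns on Notch target genes without a ligand, and myr-AKT is Akt1 held at the membrane by a myristoyl group, where it is active. In the developing liver Notch signaling directs hepatoblasts towards bile duct cells, and hepatocytes in which NICD1 and active Akt are expressed together give rise to tumors with the features of intrahepatic cholangiocarcinoma (CCA). Hepatocytes make most plasma proteins, bile duct cells (cholangiocytes) are a ciliated epithelium on a basement membrane, and the tissue around bile ducts and duct-like tumors holds myofibroblasts, vessels and leukocytes.

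Total counts were 14691286 to 15053824 in control and 15788448 to 19594839 in NICD1/Akt libraries. Genes at 1 CPM or more numbered 11192 to 11269 in controls and 13208 to 13243 in NICD1/Akt libraries, and the 50 most abundant genes took 34.2% to 34.5% of the counts in controls and 21.7% to 24% in NICD1/Akt libraries. Because of this difference in composition, TMM factors were 0.778 to 0.786 in controls and 1.23 to 1.36 in NICD1/Akt libraries, and directions below are relative to that scaling. The series also holds 3 WT libraries of 2 weeks (30, 31 and 32), of which library 32 carried Akt1 at 381 CPM and Gp2 at 211 CPM (TMM over all 12 libraries of the series, as for all levels of 2-week controls below). Only control libraries 30 and 31 are therefore set beside the 3-week values, and in these the Y-linked gene Ddx3y was at 0 CPM while all 6 libraries of 3 weeks carried it, so that stage and sex cannot be told apart between them.

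At 3 weeks, 5031 genes were higher and 4403 lower in NICD1/Akt than in control livers (edgeR, adjusted p under 0.05), which is 38.5% and 33.7% of the genes tested. At least 2-fold changes numbered 3447 higher (26.4%) and 1462 lower (11.2%), and 10082 genes had no overlap between the groups. With library size only in place of TMM the counts were 8845 higher and 1278 lower. Large changes were mostly rises: 1319 genes were over 8-fold higher and 27 over 8-fold lower. The level in control liver sorted the directions. Of the 148 genes over 1000 CPM in controls, 112 were at least 2-fold lower and of the 1747 genes at 100 to 1000 CPM, 693 were lower and 13 higher by that measure. The filter shapes the other end of this range, since 1508 genes passed it only through NICD1/Akt libraries where the filter itself sets the direction before scaling, against 12 that passed only through controls. Counts of gene groups are therefore given over the 11532 genes that reached 1 CPM in at least 1 library of both groups, called expressed in both groups below. Of these, 31% were higher and 38.1% lower, 17.4% and 12.6% by at least 2-fold, with a median log2 fold change of -0.09. Counts of a gene group that lie near these shares say little about that group. Many genes named below passed only through NICD1/Akt livers, with all 3 controls under 1 CPM before TMM scaling. Ehf, Glis3, Krt7, Cldn7, Plk1, Cspg4, Col9a3, Tgfb2, Rgma, Phlda3 and Esm1 are examples. Further ones are Cdh6, Prom1, Wfdc2, Vcan, Lox, Serpinb1a, Plau, Cx3cl1, Cx3cr1, Cox6b2, Pfkfb4, Celsr2, Fstl3, Ephb3 and Kcnk1. For such genes the filter set the direction, so their p-values are no support for it. Against control libraries 30 and 31, 33.6% of 13065 genes were higher and 30.9% lower in the same NICD1/Akt libraries.

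**Figure D1:**
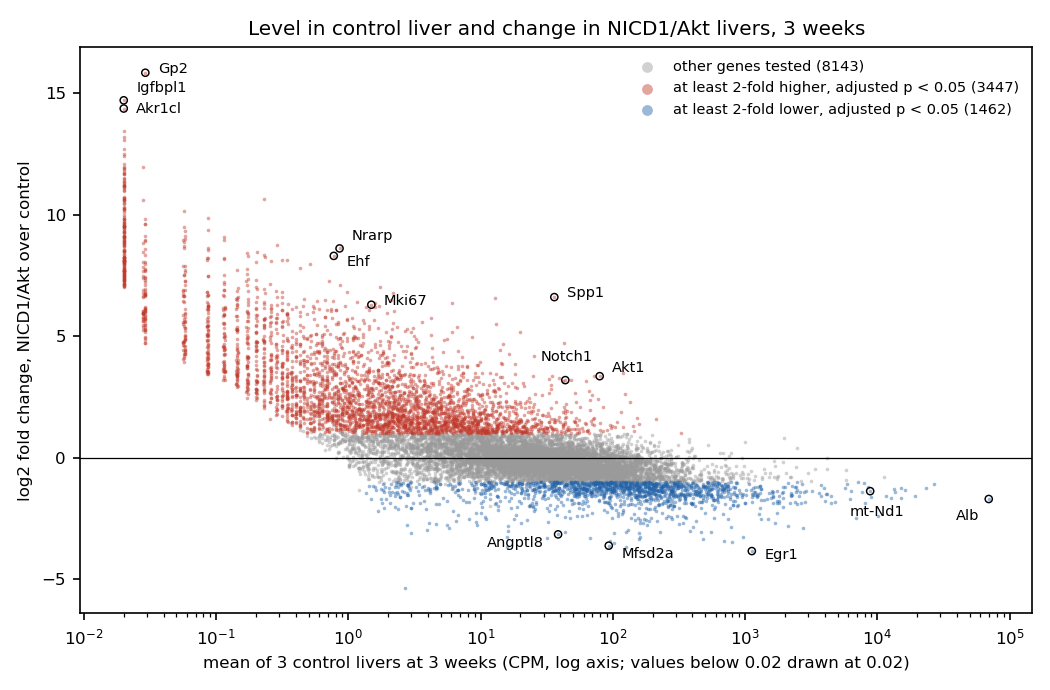
Each point is 1 of 13052 genes, with the mean CPM of the 3 control livers on a log axis and the log2 fold change of NICD1/Akt over control livers on the vertical axis. Red and blue points are at least 2-fold higher (3447) and at least 2-fold lower (1462). Blue points make up 112 of the 148 genes over 1000 CPM in controls, and genes near 0 CPM in controls can pass the filter only through NICD1/Akt livers, so they lie on the higher side.

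Notch signaling was described first, since NICD1 is its active form. Notch1 (ENSMUSG00000026923.16), whose count includes transgene RNA wherever the sequences match, was at 355, 451 and 389 CPM in NICD1/Akt and 42.6, 45.7 and 42.7 CPM in control livers, and Akt1 (ENSMUSG00000001729.15) at 651, 932 and 852 CPM and 85.8, 74.8 and 77.9 CPM. Both plasmid genes were higher in every NICD1/Akt library than in every control, with log2 fold changes of 3.19 (standard error 0.13) and 3.35 (standard error 0.16). The same absence of overlap holds for each gene named as higher, lower, risen or fallen below, apart from Arrdc3, Inhbe and Tcf7l1. Of 13 Notch target genes expressed in both groups 10 were higher and 3 lower, where 31% and 38.1% of all such genes were, with a median log2 fold change of 2.02, and 4 more passed the filter only through NICD1/Akt livers. Heyl, a transcriptional repressor of the Hes and Hey family, was at 107, 119 and 101.4 CPM against 2.69, 2.10 and 3.47 CPM (log2 fold change 5.31 ± 0.17 SE, adjusted p = 2.5e-07). Ccnd1, the gene of cyclin D1, was at 659.9, 927 and 658 CPM against 72.03, 72.98 and 71.8 CPM (log2 fold change 3.37 ± 0.17 SE, adjusted p = 1.25e-06). In the other direction, Bcl6, which encodes a repressor, was at 33.8, 23.3 and 31.1 CPM against 238, 49.1 and 226 CPM (log2 fold change -2.54 ± 0.51 SE, adjusted p = 0.00212), and control library 11 lay closer to the NICD1/Akt livers than the other 2 controls did. Bcl6 was at 49.5 and 47.2 CPM in control libraries 30 and 31. Hes5, a classical Notch target, had 0 counts in the 3 controls and 5.18, 7.50 and 7.28 CPM in the NICD1/Akt livers, which is at least 76.8-fold higher against a floor of 3 counts over the control group.

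Among receptors, ligands and modifiers of the Notch pathway, 16 of 31 genes expressed in both groups were higher and 7 lower, with a median of 0.26. Dtx3 and Dtx4, genes of Deltex proteins, rose to 47.1 ± 8.89 and 80.5 ± 7.90 CPM from 5.96 ± 1.15 and 14.04 ± 2.37 CPM (SD, n = 3 in each case). Psen2, which encodes a subunit of the gamma-secretase that releases the Notch intracellular domain, fell, with 60.5, 45.7 and 72.5 CPM against 149, 181 and 139.9 CPM (log2 fold change -1.40 ± 0.18 SE, adjusted p = 0.000166).

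The promoter of Hes5 is shown because, of the Notch target genes called at least 2-fold with a promoter in the RefSeq table (GRCm38.p6), it holds most matches of the RBPJ core TGGGAA on either strand. It covers the 250 bases before the start at chr4:154960673-154960922 on the plus strand, with the matches in capitals, which begin 226 and 82 bases before the start.
Hes5: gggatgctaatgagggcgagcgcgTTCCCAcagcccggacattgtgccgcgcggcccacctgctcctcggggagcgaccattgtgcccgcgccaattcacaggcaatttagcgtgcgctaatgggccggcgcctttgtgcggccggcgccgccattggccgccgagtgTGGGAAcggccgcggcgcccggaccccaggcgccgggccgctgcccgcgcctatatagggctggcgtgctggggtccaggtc
The core is short and occurs in 21.0% of the 10444 promoters of genes tested and in 21.5% of all 27025 promoters of the table. Only 12 of the 17 Notch target genes tested had a promoter there, under 80%, so no share is given for that group.

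The 12 largest rises, by the rule of at least 10 CPM in the NICD1/Akt livers and no overlap, were in genes with almost no counts in control liver. Gp2, a glycoprotein gene known from pancreatic acinar cells and from M cells of the gut, was at 1810.3, 2307 and 2272 CPM in the NICD1/Akt livers and at 0, 0.0874 and 0 CPM in controls, where it rested on 1 count (ratio 73784, 95% counting interval 13243 to 2914333). Igfbpl1, of the IGF binding protein family, was at 167, 239.9 and 179 CPM with 0 counts in controls, at least 2281-fold higher. Akr1cl, an aldo-keto reductase gene, was at 153, 165 and 145 CPM (at least 1798-fold higher). Vipr2, a receptor for vasoactive intestinal peptide, was at 124, 171 and 139 CPM and rested on 1 control count (ratio 5057, 95% counting interval 907 to 199746). The 3 controls together held at most 1 count of each of these 4 genes, which lay over 100 CPM in each NICD1/Akt library.
Several of the 12 are best known from nerve and gland. Snap91, a clathrin assembly protein of synapses, was at least 942-fold higher, Nexmif, a nuclear gene linked to neurite growth, at least 789-fold, Tubb2b, a neuronal beta-tubulin, at least 495-fold, Cck, the gene of cholecystokinin, at least 454-fold and S100b, a calcium-binding protein of glia, at least 338-fold. Upk3a, a uroplakin of the bladder epithelium, was at 51.9, 73.4 and 62.2 CPM (at least 726-fold higher), Adamts16, a secreted metalloprotease, at 44.3, 50.5 and 51.4 CPM (at least 563-fold) and Gm17783, a predicted gene, at 25.5, 35.8 and 32.8 CPM (at least 363-fold). In control libraries 30 and 31 all 12 genes were at 4.05 CPM or less, the highest being Gp2.

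The 12 largest falls were in genes well expressed in the controls of 3 weeks, and most of them were low in the controls of 2 weeks. Egr1, an immediate early transcription factor, was at 75.2, 96.3 and 61.7 CPM in the NICD1/Akt livers and 1111, 1229.5 and 1033 CPM in controls (log2 fold change -3.85 ± 0.19 SE, adjusted p = 1.3e-06), without overlap, but control libraries 30 and 31 had 70.03 and 81.3 CPM, where the NICD1/Akt livers averaged 71.2 CPM on the same scale of 12 libraries. Dnajb1, a heat shock co-chaperone, was at 56.5, 83.99 and 47.9 CPM against 912, 359 and 799 CPM, and at 29.4 and 31.2 CPM in libraries 30 and 31. Srxn1, which encodes sulfiredoxin, was at 48.7, 128 and 35.7 CPM against 1072, 189 and 1136 CPM, where control library 11 stood far below the other 2, and at 51.8 and 50.3 CPM in libraries 30 and 31. The same held for Phlda1 (602, 249.1 and 594 CPM in controls, 46.9 and 48.5 CPM in libraries 30 and 31, 48.3, 40.4 and 50.5 CPM in the NICD1/Akt livers), Insc, Cldn14, Ihh, Rnf186, 3110082I17Rik and 2010003K11Rik, for which libraries 30 and 31 lay under all 3 controls of 3 weeks.
Of these 12 genes, Mfsd2a, Tcim, Ihh and Insc also passed the test as lower than in libraries 30 and 31, Ihh with 3.32 and 2.95 CPM there against a mean of 1.13 CPM in the NICD1/Akt livers and Insc with 14.1 and 14.7 CPM against 8.09 CPM. Mfsd2a, which encodes the transporter for lysophospholipids with docosahexaenoic acid, was at 14.1, 3.99 and 4.27 CPM against 93.6, 81.3 and 104 CPM (log2 fold change -3.63 ± 0.44 SE, adjusted p = 0.000135) and at 219 and 193 CPM in libraries 30 and 31. Tcim, a small regulator of Wnt signaling, was at 15.6, 19.4 and 11.3 CPM against 160.0, 119.7 and 194 CPM (log2 fold change -3.35 ± 0.24 SE, adjusted p = 7.74e-06) and at 113 and 124 CPM in libraries 30 and 31. Whether the controls of 3 weeks or those of 2 weeks are the unusual ones for the others was not tested.

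**Figure D2:**
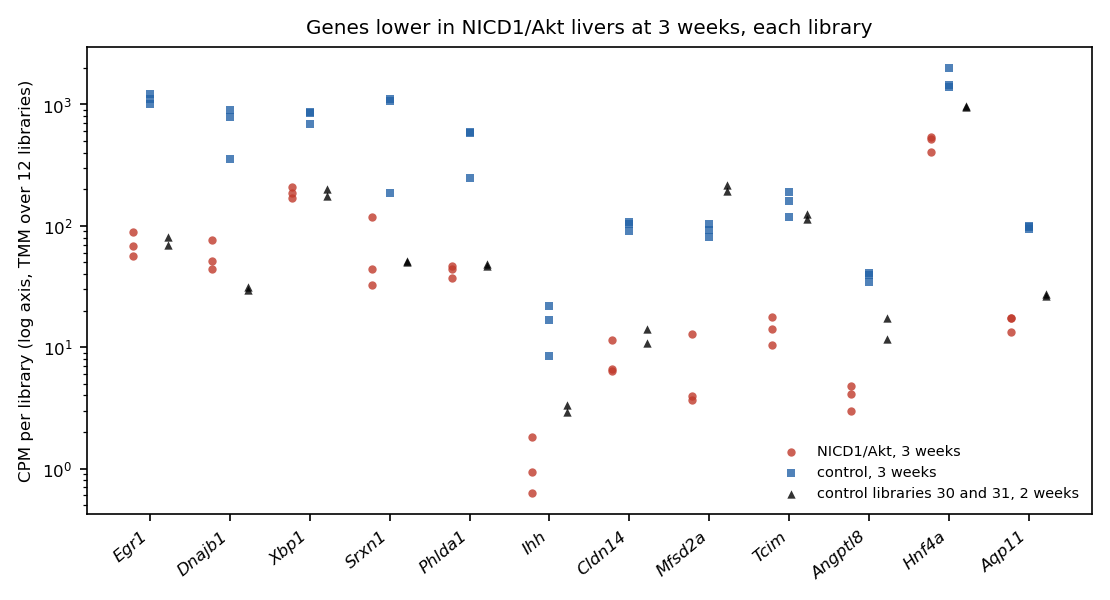
CPM of 12 genes in each library on a log axis (TMM over 12 libraries), with NICD1/Akt livers at 3 weeks as red circles, controls at 3 weeks as blue squares and control libraries 30 and 31 of 2 weeks as black triangles. For Egr1, Dnajb1, Xbp1 and Phlda1 the triangles lie far below the squares and near the circles, while for Mfsd2a, Tcim and Hnf4a they lie above all circles.

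The labelled tissue was checked with markers of liver cell types. Hepatocyte markers were present and lower in NICD1/Akt livers: Alb, the gene of albumin, was at 25252, 17826 and 20820.3 CPM against 67934, 70180.2 and 70714 CPM (log2 fold change -1.71 ± 0.26 SE, adjusted p = 0.000425), and Apoa1, Ttr and Cyp2e1 had log2 fold changes of -1.41, -1.69 and -1.27. Tat, which encodes tyrosine aminotransferase, missed the threshold at 1596, 394 and 1026 CPM against 1878, 1529.8 and 1812 CPM (log2 fold change -0.79 ± 0.42 SE, adjusted p = 0.116), with library 2 far below the other NICD1/Akt livers, and passed without NICD1/Akt library 1 (-1.29, adjusted p = 0.0189). The cholangiocyte markers Krt19, Krt7, Epcam, Sox9 and Cftr were all higher, of which Krt7 and Cftr passed the filter only through NICD1/Akt livers. Krt7 was at 40.4, 36.99 and 33.9 CPM against 0.955, 0.350 and 1.10 CPM (log2 fold change 5.52 ± 0.24 SE, adjusted p = 7.65e-07). Epcam was at 80.7, 125 and 104 CPM against 16.1, 4.11 and 17.5 CPM (log2 fold change 3.04 ± 0.42 SE, adjusted p = 0.000281), and Cftr, the chloride channel of duct cells, at 52.1, 78.3 and 54.2 CPM against 0, 0.175 and 0.0846 CPM on 3 control counts (ratio 720.4, 95% counting interval 246 to 3495). In these bulk samples, fewer cells of a type and less RNA per cell cannot be told apart.
Of the stellate cell markers, Pdgfrb was higher (75.6 ± 8.07 CPM against 17.8 ± 2.10 CPM, SD, n = 3) as was Des (log2 fold change 0.89), whereas Lrat (log2 fold change -0.01 ± 0.26 SE, adjusted p = 0.972) and Reln (log2 fold change -0.21 ± 0.11 SE, adjusted p = 0.112) did not pass, and Reln passed without NICD1/Akt library 1 (adjusted p = 0.0316). Against control libraries 30 and 31, Lrat (-1.79, adjusted p = 0.000617) and Reln (-0.85, adjusted p = 0.000938) were lower on the log2 scale, and Des did not pass (0.35, adjusted p = 0.113). Sinusoidal Clec4g and Stab2 were lower (log2 fold changes -1.27 and -0.52, the latter 0.18 with library size only) and Lyve1 did not pass (0.34, adjusted p = 0.346), which changed without control library 12 (0.81, adjusted p = 0.0116). Here and below, a gene's value in parentheses without a unit is its log2 fold change. The Kupffer cell genes Clec4f, Timd4 and Vsig4 were lower (-1.09, -1.23 and -0.85). S100a8 and S100a9 of neutrophils were under 4 CPM in all 6 libraries and did not pass, and the B and T cell markers Cd79a, Cd3e and Cd3d were under the filter.

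Most called transcription factors of the hepatocyte were lower and most of the duct were higher. Of 30 hepatocyte-enriched factors 18 were lower and 2 higher (median log2 fold change -0.67). Hnf4a, the master regulator of hepatocyte genes, was at 570.5, 442 and 587 CPM against 1463, 1997 and 1425 CPM (log2 fold change -1.61 ± 0.18 SE, adjusted p = 9.62e-05), and Nr1h3, the oxysterol receptor LXR alpha, at 38.9, 33.8 and 43.2 CPM against 98.3, 93.3 and 94.4 CPM (log2 fold change -1.31 ± 0.11 SE, adjusted p = 1.53e-05). Both were also above the NICD1/Akt livers in control libraries 30 and 31, with 958 and 981 CPM and 120.4 and 111 CPM. Xbp1, the effector of the IRE1 arm of the unfolded protein response, fell from 807 ± 97.2 to 206 ± 21.5 CPM (SD, n = 3) but was at 177 and 201 CPM in libraries 30 and 31.
Of 19 ductal and epithelial factors expressed in both groups 12 were higher and 4 lower (median 1.05), and 8 passed only through NICD1/Akt livers, Ehf and Glis3 among them. Ehf, an Ets factor of epithelia, was at 220.1, 273 and 251 CPM against 0.347, 1.05 and 0.930 CPM (log2 fold change 8.31 ± 0.25 SE, adjusted p = 2.5e-07). Sox4, which acts beside Sox9 in bile duct development, was at 115, 148 and 124 CPM against 1.21, 2.27 and 1.61 CPM (log2 fold change 6.24 ± 0.20 SE, adjusted p = 2.5e-07), and Glis3 at 51.2, 53.1 and 47.99 CPM against 1.04, 0.787 and 1.10 CPM (log2 fold change 5.69 ± 0.14 SE, adjusted p = 2.28e-07). Tcf7l1 was lower, at 13.4, 15.9 and 14.4 CPM against 49.7, 9.79 and 38.05 CPM, with control library 11 among the NICD1/Akt livers. The call of Tcf7l1 was lost without any 1 of control libraries 10 and 12 and NICD1/Akt libraries 1, 2 and 3 (adjusted p between 0.0775 and 0.207).
Foxj1, the regulator of motile cilia, rose from 0.830 ± 0.419 to 38.6 ± 5.73 CPM and Foxm1, a regulator of mitotic genes, from 1.69 ± 0.560 to 28.97 ± 4.77 CPM (SD, n = 3), while Foxa3 fell from 147 ± 48.4 to 38.02 ± 8.31 CPM. Over 19 Fox genes expressed in both groups the counts were 7 higher and 9 lower. Over all 22 tested they were 10 higher and 9 lower, and 13 higher and 4 lower against libraries 30 and 31. Spib and Elf4, Ets factors best known from lymphoid cells, were at 58.6, 80.2 and 78.4 CPM against 0.694, 0.699 and 1.44 CPM and 51.01, 65.4 and 57.6 CPM against 3.12, 2.88 and 2.96 CPM. Of 19 Ets genes 8 were higher and 6 lower. Zinc finger genes of the Zfp series mostly encode DNA-binding proteins of unknown targets. Of 275 expressed in both groups 99 were higher and 42 lower, with a median of 0.29, led by Zfp703, Zfp532 and Zfp704 (log2 fold changes 3.34, 3.25 and 3.00). Of 9 Sox genes 7 were higher and the others did not pass the test. Hox genes were near silent, with 5 of 39 through the filter. In the Myc network 2 of 9 genes were higher and 5 lower, a median of -0.29 over these and -0.19 over all 11 tested, which turned to 0.52 with library size only. Myc itself was lower, at 25.9, 32.2 and 16.9 CPM against 215, 37.8 and 190.4 CPM (log2 fold change -2.56 ± 0.57 SE, adjusted p = 0.00348), with control library 11 near the NICD1/Akt livers and libraries 30 and 31 at 5.70 and 5.39 CPM.

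**Figure D3:**
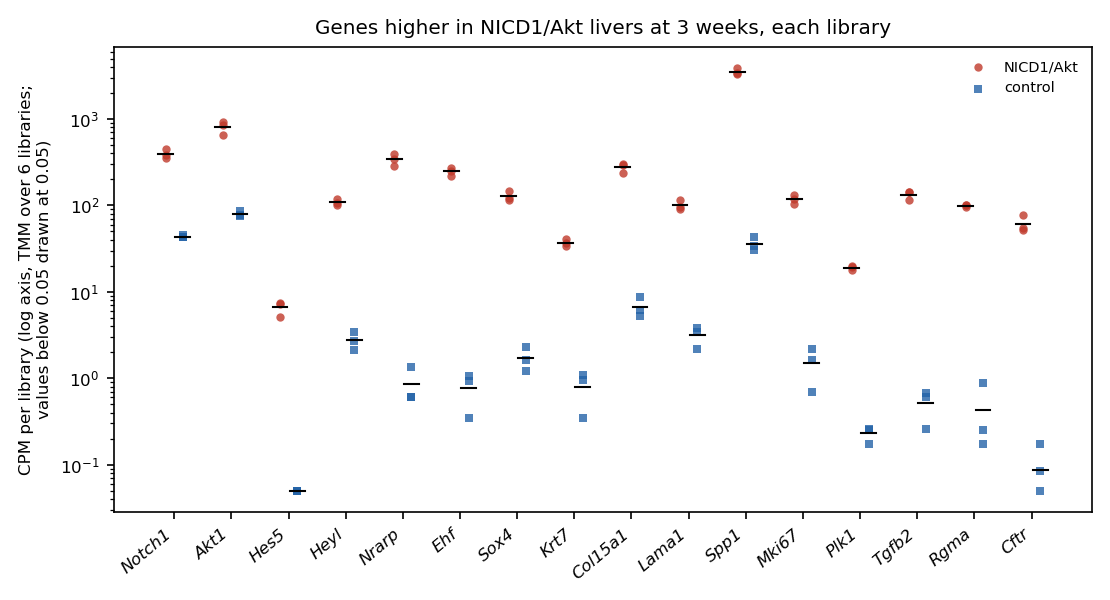
CPM of 16 genes in each library at 3 weeks on a log axis (TMM over 6 libraries), with NICD1/Akt livers as red circles, controls as blue squares and group means as black lines. In all 16 genes every NICD1/Akt library lies above every control, and Hes5 has 0 counts in the controls.

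Epithelial structure genes differed by family. Only 9 of 49 keratin genes passed the filter, 5 of them through NICD1/Akt livers alone. Krt19, a duct keratin, was at 54.99, 63.9 and 34.1 CPM against 3.04, 4.81 and 4.48 CPM (log2 fold change 3.63 ± 0.28 SE, adjusted p = 1.07e-05), and Krt20, a keratin of the gut, at 27.8, 30.8 and 41.2 CPM with 2 counts in controls (ratio 569, 95% counting interval 157 to 4704). Among claudins and tight junction genes, 9 of 22 expressed in both groups were higher and 8 lower (median 0.08). Cldn7, a claudin of ductal epithelia, was at 36.04, 49.9 and 40.8 CPM against 0.607, 0.524 and 0.676 CPM (log2 fold change 6.11 ± 0.21 SE, adjusted p = 2.78e-07), Ocln, the gene of occludin, rose (log2 fold change 1.83) and Cldn2 fell (-1.34). Ocln in libraries 30 and 31 was at 30.6 and 30.4 CPM, where NICD1/Akt livers averaged 31.4 CPM on that scale.
Of 15 desmosome and cadherin genes 11 were higher and 3 lower (median 0.51). Cdh6, a cadherin of renal and biliary epithelium, was at 43.9, 52.3 and 53.1 CPM against 0.868, 0.262 and 1.10 CPM (log2 fold change 6.04 ± 0.26 SE, adjusted p = 7.25e-07). Ppl, which encodes periplakin, fell with a wide spread, at 16.6, 61.8 and 9.87 CPM against 182, 154 and 197 CPM (log2 fold change -2.59 ± 0.59 SE, adjusted p = 0.00401), and libraries 30 and 31 had 28.2 and 20.6 CPM. Integrins had 17 of 20 genes higher and 1 lower (median 0.91), among them Itga6 (3.75) and Itgb4 (5.43), the pair that binds laminin at hemidesmosomes, and Itgb8 (5.40), which activates latent TGF beta. Itgb4 was at 56.4, 68.6 and 61.4 CPM against 1.04, 1.40 and 1.86 CPM.
Secreted and surface proteins of epithelia included Cd24a, a surface glycoprotein of progenitor and duct cells, at 191, 289.6 and 233 CPM against 1.48, 2.53 and 2.54 CPM (log2 fold change 6.76 ± 0.25 SE, adjusted p = 3.61e-07), Prom1, the gene of CD133, at 20.7, 19.2 and 20.2 CPM against 0.260, 0.612 and 0.846 CPM, and Wfdc2 at 32.2, 42.4 and 35.8 CPM against 1.21, 0.175 and 0.592 CPM. Pigr, the receptor that carries immunoglobulins into bile, and Ceacam1 were lower (-1.56 and -1.33). Over this list 5 of 9 genes expressed in both groups were higher and 2 lower. Of 16 annexin and S100 genes 8 were higher, such as Anxa5 (3.37), and 3 lower, such as S100a10 (-1.68).
Cilium genes were higher in 30 of 42 cases and lower in 1 (median 1.08). Pkhd1, the gene of fibrocystin, mutated in recessive polycystic kidney and liver disease, was at 149, 147 and 126 CPM against 6.86, 7.17 and 6.26 CPM (log2 fold change 4.37 ± 0.12 SE, adjusted p = 2.28e-07). Pkd2, which encodes polycystin-2, was at 55.2, 64.2 and 56.4 CPM against 9.20, 9.26 and 11.3 CPM (log2 fold change 2.56 ± 0.12 SE, adjusted p = 9.68e-07), and at 32.9 and 32.2 CPM in libraries 30 and 31.

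Among extracellular matrix genes more members of each family below were called higher than lower, and each family also had members called lower. Of 23 collagen genes expressed in both groups 18 were higher and 4 lower, with a median log2 fold change of 3.41, and 13 more passed only through NICD1/Akt livers. Col15a1, a collagen of basement membranes, was at 295, 298 and 237 CPM against 5.21, 8.65 and 6.09 CPM (log2 fold change 5.38 ± 0.21 SE, adjusted p = 4.61e-07), Col5a2, a fibrillar collagen, at 135, 144 and 98.5 CPM against 2.78, 2.53 and 3.97 CPM (log2 fold change 5.34 ± 0.22 SE, adjusted p = 5.7e-07), and Col9a3, known from cartilage, at 37.6, 49.7 and 41.2 CPM against 0.694, 0.350 and 0.338 CPM (log2 fold change 6.52 ± 0.24 SE, adjusted p = 3.22e-07). Col27a1, Col20a1 and Col13a1 were lower (-1.50, -1.99 and -1.45), and libraries 30 and 31 had 24.4 and 29.99 CPM of Col27a1 and 2.45 and 3.88 CPM of Col20a1, where NICD1/Akt livers averaged 41.6 and 3.10 CPM on that scale.
Laminins and other basement membrane genes were higher in 15 of 19 cases and lower in 2 (median 2.33). Lama1, the alpha chain of embryonic laminin, was at 96.05, 115 and 90.1 CPM against 2.17, 3.85 and 3.47 CPM (log2 fold change 4.99 ± 0.19 SE, adjusted p = 4.74e-07), and Agrn, the gene of agrin, at 446, 489.8 and 386 CPM against 61.2, 64.9 and 71.02 CPM (log2 fold change 2.74 ± 0.13 SE, adjusted p = 1.05e-06). Among glycoproteins and proteoglycans 25 of 36 were higher and 7 lower (median 1.43). Eln, the gene of elastin, was at 169, 209 and 189 CPM against 2.08, 2.01 and 2.20 CPM (log2 fold change 6.49 ± 0.14 SE, adjusted p = 2.28e-07), and Vcan, which encodes versican, at 55.7, 64.7 and 52.4 CPM against 1.21, 0.699 and 1.27 CPM. The syndecans Sdc4 and Sdc2, heparan sulfate proteoglycans of hepatocytes, were lower (-1.93 and -1.15).
Genes that process and cross-link collagen were higher in 13 of 18 cases (median 1.67). Lox is not among these 18, since it passed the filter only through NICD1/Akt livers, which set its direction. Lox, the lysyl oxidase that joins collagen and elastin, was at 59.8, 72.1 and 48.4 CPM against 0.434, 1.05 and 0.507 CPM (log2 fold change 6.49 ± 0.27 SE, adjusted p = 6.42e-07). Of 33 matrix protease and inhibitor genes 25 were higher and 3 lower (median 1.67), and Mmp19 was one of those that fell (-1.33). Of the stellate cell and myofibroblast genes, 14 of 20 were higher and 3 lower (median 1.36), and the summed level of the 22 tested was 1268 to 1550.1 CPM in NICD1/Akt livers and 483 to 592 CPM in controls. Cspg4, a pericyte proteoglycan also called NG2, was at 123, 149 and 105 CPM against 0.521, 0.0874 and 0.254 CPM (log2 fold change 8.74 ± 0.30 SE, adjusted p = 2.64e-07), whereas Colec10 and Ecm1, expressed by resting stellate cells, were lower (-1.47 and -1.13). The part of the cell mixture in the matrix changes was not tested. Over all members tested, the medians against libraries 30 and 31 were 2.96 for collagens, 2.01 for laminins and 1.42 for proteases. Over the same members they were 3.83, 2.47 and 2.37 against controls of 3 weeks.

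Plasma proteins made by hepatocytes fell across functional classes. Coagulation and fibrinolysis genes were lower in 28 of 35 cases and higher in 5 (median -1.18). F9, clotting factor IX, was at 129.7, 114 and 137 CPM against 283, 314 and 276 CPM (log2 fold change -1.20 ± 0.11 SE, adjusted p = 3.22e-05). Those that rose include a gene of vessels: Vwf, the von Willebrand factor of endothelium, was at 50.5, 65.1 and 78.5 CPM against 10.5, 11.4 and 12.9 CPM (log2 fold change 2.48 ± 0.17 SE, adjusted p = 7.03e-06). The plasminogen activators Plat and Plau were at 24.6 ± 2.64 and 9.84 ± 0.549 CPM against 0.828 ± 0.456 and 0.347 ± 0.154 CPM (SD, n = 3). Plau passed the filter only through NICD1/Akt livers, so it is not among the 5. Complement genes were lower in 24 of 32 cases and higher in 2 (median -0.76). C8g, a subunit of the membrane attack complex, fell (-1.54), and C3ar1, the C3a receptor of myeloid cells, rose (2.92).
Serpins changed in both directions. Of 31 expressed in both groups 22 were lower, such as Serpina1d and Serpina3m of hepatocytes (-1.56 and -1.73), and 8 higher, such as the intracellular Serpinb6a at 445, 699 and 623 CPM against 12.8, 10.2 and 15.9 CPM (log2 fold change 5.50 ± 0.25 SE, adjusted p = 8.33e-07). Serpinb1a, which passed the filter only through NICD1/Akt livers, was at 48.4, 61.2 and 53.1 CPM against 0.955, 0.699 and 0.761 CPM. Against libraries 30 and 31 the median of the serpins was 0.01 in place of -1.31, and Serpina3m was at 443 and 466 CPM there, where NICD1/Akt livers averaged 386 CPM. Major urinary proteins, which in mice depend on male growth hormone secretion, were lower in 17 of 19 cases with a median of -1.12, but higher than in libraries 30 and 31 (median 1.98). Mup21 was at 350.0, 337 and 529 CPM in the NICD1/Akt livers, 1241, 1129 and 1299 CPM in controls and 6.23 and 7.26 CPM in libraries 30 and 31. Reads of near-identical Mup copies may be split between them, so single Mup values are uncertain.
Acute phase genes were lower in 19 of 32 cases and higher in 5 (median -0.72), and against libraries 30 and 31 the counts were 9 lower and 7 higher (median -0.36). A2m, alpha-2-macroglobulin, rose to 103, 122 and 66.5 CPM from 3.21, 0.350 and 3.47 CPM (log2 fold change 5.37 ± 0.48 SE, adjusted p = 2.53e-05), and Lcn2, lipocalin-2, was at 243, 444 and 251 CPM against 15.1, 71.1 and 12.4 CPM (log2 fold change 3.25 ± 0.65 SE, adjusted p = 0.00202). Steap4, a metalloreductase, fell (-2.31) but was at 133 and 129 CPM in libraries 30 and 31, where NICD1/Akt livers averaged 125 CPM.
Hepatic hormones, carriers and their receptors were lower in 33 of 40 cases (median -1.20, and -1.20 against libraries 30 and 31). Angptl8, an insulin-induced inhibitor of lipoprotein lipase, was at 4.48, 3.23 and 5.24 CPM against 39.7, 34.4 and 41.4 CPM (log2 fold change -3.17 ± 0.18 SE, adjusted p = 2.15e-06), and Prlr, the prolactin receptor, at 70.1, 54.4 and 65.8 CPM against 308, 236 and 289 CPM (log2 fold change -2.13 ± 0.15 SE, adjusted p = 6e-06). Igfbp5 and Igfbp7 rose (3.49 and 1.21). Afm, the vitamin E carrier afamin, was at 137, 83.1 and 134 CPM against 335, 384 and 323 CPM (log2 fold change -1.56 ± 0.19 SE, adjusted p = 0.000152).
Promoters of members called at least 2-fold lower, though not of every one, were ranked, with ties broken by adjusted p. The promoter of Afm is shown because none of those ranked held more matches of HNF1 (GTTAATNAT) and the TATA box (TATAAA). It lies at chr5:90518699-90518948 on the plus strand (RefSeq, GRCm38.p6), and the capitals mark the HNF1 match 138 bases and the TATA box 30 bases before the start.
Afm: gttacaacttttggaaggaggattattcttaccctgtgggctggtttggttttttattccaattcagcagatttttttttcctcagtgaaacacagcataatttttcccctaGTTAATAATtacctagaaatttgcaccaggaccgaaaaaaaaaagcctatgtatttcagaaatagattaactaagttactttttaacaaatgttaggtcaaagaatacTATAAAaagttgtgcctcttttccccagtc
An HNF1 match was in 14.3% of the 35 promoters read of this list and in 0.622% of those of all genes tested (0.781% of all promoters of the table), and a TATA box in 22.9% and 6.71% (13% of all promoters). These shares are descriptions of letters, not of binding.

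Genes of mitosis expressed in both groups were all higher, and those of DNA replication with 1 exception among the called genes. Mitosis genes numbered 73 after the filter, of which 55 passed only through NICD1/Akt livers, and all 18 of the others were higher (median 3.10). Mki67, the proliferation marker Ki-67, was at 103, 133 and 118 CPM against 2.17, 0.699 and 1.61 CPM (log2 fold change 6.30 ± 0.26 SE, adjusted p = 6.07e-07), and Plk1, a mitotic kinase, at 17.7, 19.8 and 19.6 CPM against 0.174, 0.262 and 0.254 CPM (log2 fold change 6.33 ± 0.21 SE, adjusted p = 2.63e-07). Cenpf, a kinetochore gene, and Dlgap5, a spindle gene, had 29.98, 36.8 and 36.2 CPM and 17.4, 19.97 and 18.5 CPM in the NICD1/Akt livers and under 0.5 CPM in every control of 3 weeks. Plk1, Cenpf and Dlgap5 passed the filter only through NICD1/Akt livers. In libraries 30 and 31 Cenpf was at 4.38 and 1.44 CPM and Mki67 at 11.1 and 7.55 CPM, above the controls of 3 weeks and below the NICD1/Akt livers.
DNA replication genes expressed in both groups were higher in 35 of 38 cases and lower in 1 (median 1.61). Mcm5 and Mcm2, subunits of the replicative helicase, were at 33.4, 48.8 and 38.5 CPM against 1.48, 1.66 and 1.61 CPM and 30.6, 41.6 and 32.5 CPM against 2.00, 1.40 and 2.45 CPM, and Lig1, the ligase of lagging strands, at 43.2, 62.5 and 46.7 CPM against 2.69, 1.84 and 1.52 CPM. Mcm10, which loads with that helicase, went the other way, at 77.9, 35.4 and 79.7 CPM against 420.3, 289 and 366 CPM (log2 fold change -2.48 ± 0.30 SE, adjusted p = 0.000141), while libraries 30 and 31 had 23.5 and 18.9 CPM, below the NICD1/Akt livers. Homologous recombination genes were higher in 17 of 25 cases and lower in 2 (median 0.78), among them Brca1 (3.56) and its partner Bard1 (5.23). Cyclins, CDKs and their inhibitors had 19 of 28 genes higher and 2 lower. Cdk6, a kinase of G1 phase, was at 125, 127 and 122 CPM against 22.04, 23.6 and 23.4 CPM (log2 fold change 2.44 ± 0.09 SE, adjusted p = 2.78e-07).
The promoter of Mki67 is shown because it has the smallest adjusted p among mitosis genes with most matches of CHR, the cell cycle genes homology region (TTTGAA). It lies at chr7:135716380-135716629 on the minus strand (RefSeq, GRCm38.p6), and the capitals mark the CHR matches 116 and 98 bases before the start.
Mki67: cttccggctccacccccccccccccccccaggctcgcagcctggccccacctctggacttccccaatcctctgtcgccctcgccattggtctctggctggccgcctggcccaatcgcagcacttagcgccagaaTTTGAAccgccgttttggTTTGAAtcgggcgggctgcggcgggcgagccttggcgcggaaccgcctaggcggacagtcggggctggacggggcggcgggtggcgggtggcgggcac
A CHR match was in 35.9% of the 64 mitosis promoters read, in 10.3% of the 39 promoters of DNA replication genes and in 10.8% of those of all genes tested (16.3% of all promoters of the table). The CCAAT motif of NF-Y was in 67.2%, 59.0% and 36.5% (34.5% of all promoters), and an E2F motif (written as TTCCCGC, with the variants TTGGCGC, or instead TTCGCGC, or lastly TTGCCGC) in 14.1%, 35.9% and 13.9% (7.97% of all promoters). Both strands were searched, a promoter was counted once per motif, and 2 motifs may share bases.

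**Figure D4:**
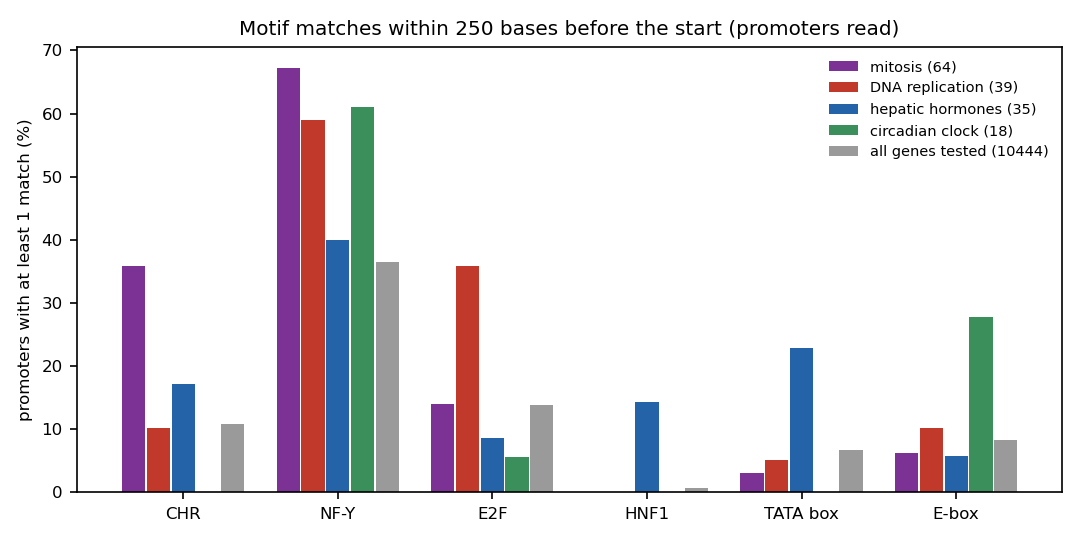
Percent of promoters with at least 1 match of 6 motifs on either strand within 250 bases before the start, for 4 gene groups and all 10444 genes tested that have a promoter in the table. CHR is in 35.9% of mitosis promoters, E2F in 35.9% of replication promoters, HNF1 in 14.3% of hepatic hormone promoters and the E-box in 27.8% of circadian clock promoters.

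Immune genes changed in both directions. Chemokines expressed in both groups were higher in 3 of 13 cases and lower in 6 (median -0.53). Over all 17 tested 7 were higher and 6 lower (median 0.35), and against libraries 30 and 31 the counts were 9 higher and 6 lower of 16 tested (median 1.51). Cxcl14 was at 29.4, 31.8 and 31.1 CPM against 0.607, 1.22 and 1.86 CPM (log2 fold change 4.63 ± 0.25 SE, adjusted p = 1.77e-06), Cx3cl1 (fractalkine) at 21.4, 30.5 and 26.4 CPM against 0.521, 1.22 and 0.846 CPM (log2 fold change 4.91 ± 0.26 SE, adjusted p = 1.77e-06) and its receptor Cx3cr1, a marker of monocyte-derived macrophages, at 23.1, 33.4 and 29.1 CPM against 0.347, 0.612 and 0.676 CPM (log2 fold change 5.69 ± 0.26 SE, adjusted p = 8.69e-07). Cx3cl1 and Cx3cr1 passed the filter only through NICD1/Akt livers, which set their direction. Cxcl1, which recruits neutrophils, fell with a wide spread (41.2, 83.2 and 126 CPM against 148, 457 and 134 CPM) and was at 1.79 and 1.37 CPM in libraries 30 and 31, below all 3 NICD1/Akt livers. Its fall was -0.75 without control library 11 (adjusted p = 0.112), and was also lost without NICD1/Akt library 1 or 2. Of 8 chemokine receptors 4 were higher and 2 lower, with Ccr2 of monocytes (3.53) and Cxcr4 (3.95) among the former.
Of 10 dendritic cell genes 7 were higher and the others did not pass. The summed level of all 14 tested was 242 to 247 CPM in NICD1/Akt livers and 149 to 162 CPM in controls, a sum that takes in 4 genes that passed the filter only through NICD1/Akt livers and so had to be higher there. Of 12 genes of MHC class II presentation 7 were higher and 1 lower (median 0.53). Only 6 of 25 T cell markers, 4 of 17 B cell markers and 1 of 19 NK cell markers passed the filter. The summed levels of those tested were 19.03 to 20.4 CPM in NICD1/Akt livers and 20.6 to 23.4 CPM in controls for T cells and 8.92 to 10.7 CPM in NICD1/Akt livers and 2.36 to 3.56 CPM in controls for B cells. 3 of the B cell markers and 1 of the T cell markers passed only through NICD1/Akt livers, so that the filter set the direction of the B cell sum. Neutrophil markers had 2 of 6 higher and the others did not pass. The higher ones were Lcn2, which epithelium also makes, and Csf3r (1.59).
Genes of lipid-associated and scavenging macrophages were higher in 8 of 22 and lower in 7 cases. Over all 27 tested 13 were higher and 7 lower, and 11 higher and 13 lower against libraries 30 and 31. Several are also made by duct cells or hepatocytes: Spp1, the gene of osteopontin, rose (6.61) as did Cd63 and Cd9 (3.70 and 2.96), while Apoe and Ctsl fell (-1.32 and -1.05).
Interleukin and receptor genes were higher in 14 of 34 and lower in 12 cases, where 31% and 38.1% of all genes expressed in both groups were. Il6ra and Il1rap, receptor chains of hepatocytes, fell (-1.64 and -1.49), and Osmr, the oncostatin M receptor, rose from 24.05 ± 0.794 to 85.8 ± 17.01 CPM (SD, n = 3). Il1r1 fell against controls of 3 weeks (197, 308 and 207 CPM against 788, 711 and 818 CPM) and was at 107 and 77.4 CPM in libraries 30 and 31. TNF superfamily genes had 8 of 16 higher and 5 lower, with Tnfrsf21 (2.12) and Ltb (3.6) higher and Tnfrsf1a and Tnfrsf1b, both TNF receptors, lower (-1.01 and -1.53). Checkpoint molecules had 8 of 17 higher and 3 lower, led by Cd276 (B7-H3) at 49.6, 66.1 and 51.9 CPM against 4.86, 5.68 and 4.99 CPM (log2 fold change 3.43 ± 0.15 SE, adjusted p = 7.65e-07). In the NF-kB list, Relb of the noncanonical arm rose to 49.7 ± 12 from 7.51 ± 0.574 CPM and Rel fell to 14.1 ± 1.41 from 36.6 ± 2.79 CPM (SD, n = 3), within 21 higher and 12 lower of 47.
Interferon-stimulated genes moved between the comparisons. Of 48 expressed in both groups 14 were higher and 9 lower than in controls of 3 weeks, where 31% and 38.1% of all such genes were. The median over all 52 tested was 0.28, and 26 of them were not called. Against libraries 30 and 31, 46 of 52 were lower, where 30.9% of all genes were (median -1.51). Ifit2, an antiviral gene, was at 5.06, 5.69 and 5.85 CPM in the NICD1/Akt livers, 0.868, 1.05 and 1.69 CPM in controls and 7.69 and 10.4 CPM in libraries 30 and 31. MHC class I presentation genes also moved between the comparisons, with 11 of 27 higher and 8 lower against controls of 3 weeks. Over all 28 tested the median was 0.06 there and -0.35 against libraries 30 and 31. H2-Q10, a soluble class I gene of the liver, fell (-1.73) and was at 2356 and 2625 CPM in libraries 30 and 31.

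Vessel genes were read by type of endothelium, and the difference between the types was not tested. Of 28 sinusoidal endothelial genes 19 were lower and the others did not pass (median -0.61, and -1.14 against libraries 30 and 31), with a summed level of 818 to 1016 CPM in NICD1/Akt livers and 1385 to 1578 CPM in controls. Clec4g, a lectin of sinusoids, was at 33.8, 33.4 and 44.98 CPM against 88.9, 86.7 and 94.95 CPM (log2 fold change -1.27 ± 0.13 SE, adjusted p = 5.17e-05), and Dnase1l3 at 62.3, 48.2 and 72.7 CPM against 146, 131 and 147 CPM (log2 fold change -1.21 ± 0.15 SE, adjusted p = 0.000146). Of 30 vascular and angiogenic genes 15 were higher and 5 lower, and over all 34 tested 19 were higher and 5 lower. Against libraries 30 and 31 the counts were 13 higher and 11 lower of 33 tested (median 0.01). Cd34, which marks vessels other than sinusoids, was at 21.9, 21.9 and 23.5 CPM against 2.17, 2.19 and 2.62 CPM (log2 fold change 3.26 ± 0.14 SE, adjusted p = 6.67e-07), and Esm1, a gene of sprouting endothelium, at 24.5, 15.9 and 12.8 CPM against 0.174, 0.0874 and 0.169 CPM (log2 fold change 6.88 ± 0.45 SE, adjusted p = 4.64e-06). The ligands Pdgfb and Pdgfa rose (4.99 and 2.35) as did the receptor Pdgfrb (2.09), and Nrp1 fell (-1.58), in a list with 13 of 20 genes higher and 5 lower. Over all 22 tested in that list 14 were higher and 5 lower, and 7 higher and 6 lower against libraries 30 and 31. Nrp1 was at 71.7 and 71.2 CPM in libraries 30 and 31, where NICD1/Akt livers averaged 54 CPM on that scale.

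Stress genes that were lower than in the controls of 3 weeks were mostly not lower than in those of 2 weeks. Of the immediate early and heat shock list, genes were lower in 27 of 33 cases and higher in 2 (median -1.48), but had a median of 0.94 against libraries 30 and 31. Dnaja1, a co-chaperone, was at 127, 142 and 138 CPM in the NICD1/Akt livers, 625, 529 and 593 CPM in controls and 148 and 140.1 CPM in libraries 30 and 31. Jun and Ier3 rose (1.09 and 2.88), also above libraries 30 and 31 (32.4 and 31.2 CPM and 1.26 and 0.503 CPM). Unfolded protein response and ER chaperone genes were lower in 33 of 38 cases (median -0.81) and had a median of 0.01 against libraries 30 and 31. Ern1, the gene of the ER stress sensor IRE1, was at 145, 139 and 144 CPM against 468, 491 and 480.1 CPM (log2 fold change -1.75 ± 0.10 SE, adjusted p = 2.07e-06), and at 117 and 115 CPM in libraries 30 and 31. Creb3l1, an ER transcription factor of collagen-secreting cells, rose from 6.42 ± 1.83 to 24.7 ± 4.46 CPM (SD, n = 3) and was at 5.24 and 3.24 CPM there.
p53 target genes were higher in 18 of 30 cases and lower in 8 (median 1.00). Phlda3, an inhibitor of Akt at the membrane, was at 25.5, 36.5 and 28.6 CPM against 0.521, 0.524 and 0.423 CPM (log2 fold change 5.93 ± 0.24 SE, adjusted p = 5.36e-07), and Zmat3, a splicing regulator induced by p53, at 52.5, 61.6 and 56.6 CPM against 14.8, 16.2 and 14.8 CPM (log2 fold change 1.90 ± 0.10 SE, adjusted p = 1.6e-06). Btg2, which immediate early signals also induce, fell (-3.05) and was at 33.95 and 46.9 CPM in libraries 30 and 31. Cell death genes were higher in 16 of 34 cases and lower in 9, with Apaf1 and Bak1, promoters of apoptosis, higher (2.19 and 1.81) and Cflar, an inhibitor of death receptors, lower (-1.15). Of 23 hypoxia-responsive genes expressed in both groups 10 were higher and 6 lower. Over all 29 tested 16 were higher and 6 lower, and 18 higher and 6 lower against libraries 30 and 31. Pfkfb4, a glycolytic regulator, was at 48.3, 55.1 and 52.4 CPM against 0.434, 0.787 and 1.01 CPM. Hk2, hexokinase 2, was at 23.4, 25.98 and 18.9 CPM against 2.60, 1.75 and 2.54 CPM, while Epas1, the gene of HIF2 alpha, fell (-1.44).
Clock genes had 4 of 21 higher and 9 lower, with a median of -0.35 over all 22 tested that turned to 0.35 with library size only. Arntl, the gene of BMAL1, was lower (7.30, 12.9 and 12.4 CPM against 27.9, 17.5 and 24.9 CPM), as was Nfil3 (-1.67). Dbp, an output gene of the clock, had the largest ratio of highest to lowest NICD1/Akt library among genes at a mean of 20 CPM or more in them and less in controls, at 65.4, 6.29 and 32.6 CPM against 1.04, 3.93 and 2.62 CPM (log2 fold change 3.78 ± 0.85 SE, adjusted p = 0.00394). That call was lost with limma-voom (3.38, adjusted p = 0.124) and with controls of both stages (1.45, adjusted p = 0.339). Inhbe (36.2, 8.87 and 26.97 CPM), Arrdc3 (108, 48.7 and 166 CPM), Gpcpd1 (119, 36.9 and 87.02 CPM) and Pdp2 (44.6, 14.1 and 41.1 CPM) followed, and in all 5 genes library 2 was the lowest of the 3. Inhbe and Arrdc3 were higher (1.46 and 1.70), calls that were lost without control library 12 or NICD1/Akt library 1 for Inhbe and without control library 10 or NICD1/Akt library 3 for Arrdc3. Gpcpd1 and Pdp2 did not pass the test between groups (log2 fold changes 0.15 and 0.14). Times of day of tissue collection are not given in the sources used here. The E-box CACGTG was in 27.8% of the 18 clock gene promoters read and in 8.30% of those of all genes tested (6.05% of all promoters).

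In most gene groups of protein production and respiration, a larger share than the 38.1% of all genes expressed in both groups was lower, in small steps. Nuclear genes of the respiratory chain were lower in 83 of 85 cases (median -0.97, and -0.97 against libraries 30 and 31), such as Ndufb10 of complex I at 50.02, 41.99 and 51.3 CPM against 104, 103 and 108 CPM (log2 fold change -1.13 ± 0.10 SE, adjusted p = 2.6e-05), and all 7 mitochondrially encoded genes tested were lower, with mt-Nd1 at 3338, 3050.3 and 3747 CPM against 8998, 8999 and 8486 CPM (log2 fold change -1.39 ± 0.16 SE, adjusted p = 0.000116). The other 6 of 13 mitochondrial genes were near 0 in every library and did not pass the filter. Cox6b2, a testis form of a complex IV subunit, rose to 5.02, 6.37 and 5.34 CPM from 0.0868, 0.437 and 0.0846 CPM.
Mitochondrial ribosomal proteins were lower in 67 of 78 cases with a median of -0.57, which turned to 0.13 with library size only. Proteasome subunits were lower in 31 of 37 cases with a median of -0.48, which turned to 0.23 with library size only, and Psmb9, the interferon-inducible subunit, was higher (1.13, and -0.17 against libraries 30 and 31). Cytosolic ribosomal proteins were lower in 23 of 81 cases, a smaller share than among all genes expressed in both groups, and 57 of the 82 tested were not called. Their median of -0.17 over all 82 turned to 0.54 with library size only, and their reads may be shared with processed copies. Translation factors were lower in 42 of 59 (median -0.38 over all 60 tested), aminoacyl-tRNA synthetases in 14 of 20 (median -0.39), ribosome biogenesis genes in 29 of 46 (median -0.55) and COP coat and Sec translocon genes in 39 of 52 (median -0.49 over all 53 tested), with medians of 0.32, 0.32, 0.16 and 0.21 with library size only. Fewer were lower against libraries 30 and 31, 20 of 60 translation factors (median -0.17), 6 of 20 synthetases (median -0.11) and 19 of 53 COP and Sec genes (median -0.28), and the ribosome biogenesis median was 0.21.
Tsr1, a ribosome assembly gene, was at 26.5, 37.1 and 25.5 CPM against 80.9, 73.6 and 75.8 CPM (log2 fold change -1.37 ± 0.15 SE, adjusted p = 6.94e-05), and at 22.7 and 24.4 CPM in libraries 30 and 31, and the median of ribosome biogenesis against these was 0.21. Sar1b, a GTPase of COPII coats that lipoprotein export needs, fell (-1.32), and Kdelr3, an ER retrieval receptor, rose (4.87). Splicing factors were even, 17 higher and 18 lower of 79. Lysosome genes were higher in 16 of 46 and lower in 22, a median of -0.15 over all 47 tested that turned to 0.56 with library size only.

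**Figure D5:**
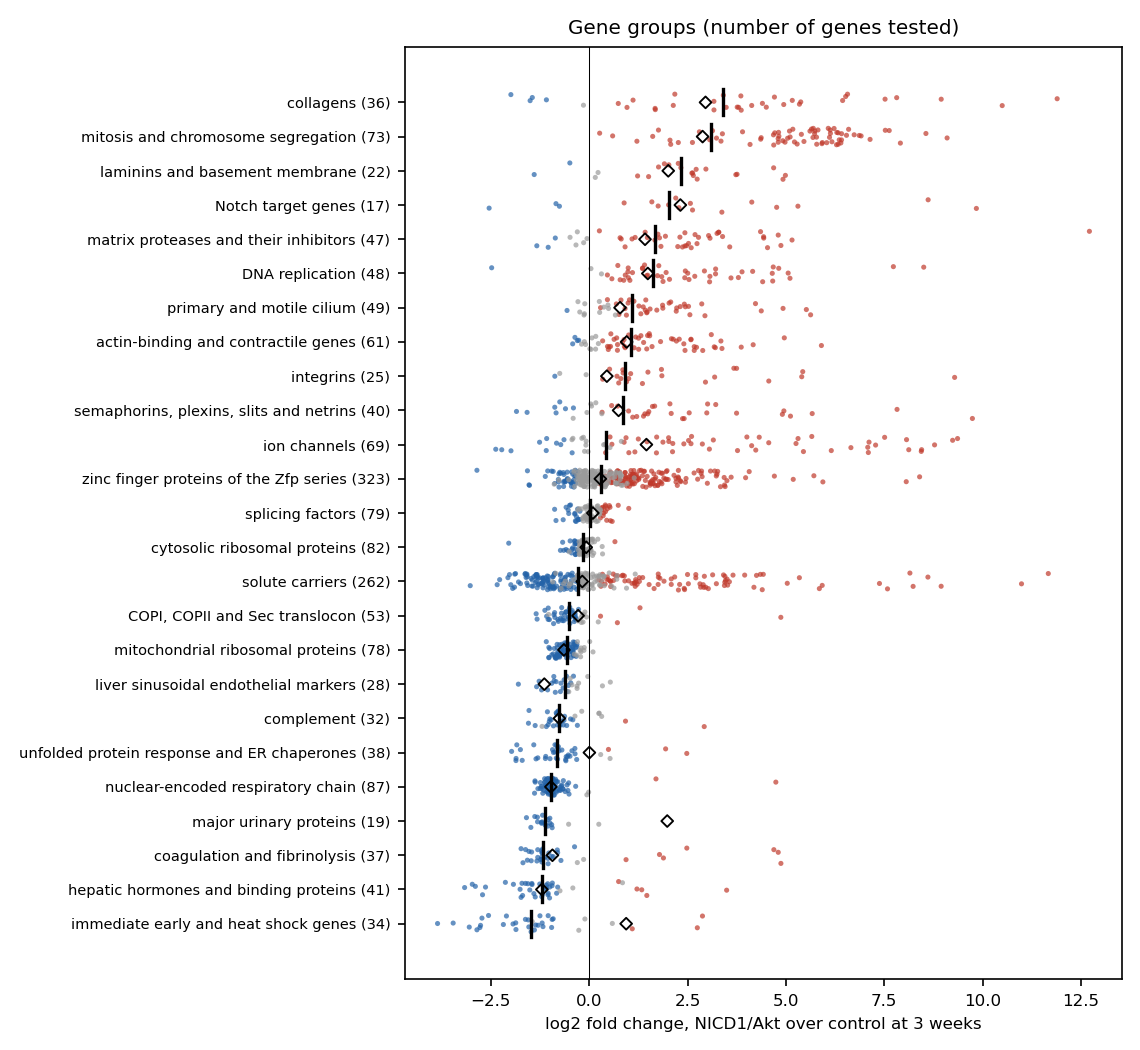
Log2 fold change of each tested gene (points) in 25 gene groups, red where higher and blue where lower at an adjusted p under 0.05 and grey otherwise, with the number tested in parentheses. Black bars are medians over genes expressed in both groups and diamonds are medians of all tested members against control libraries 30 and 31. The bar of collagens lies at 3.41, and the diamonds of major urinary proteins (1.98) and of immediate early and heat shock genes (0.94) lie on the other side of 0 from their bars. With library size only, the medians of cytosolic and mitochondrial ribosomal proteins, of COP coat and Sec translocon genes and of solute carriers turn to the higher side (0.54, 0.13, 0.21 and 0.54).

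Signaling families were described by their roles. In the PI3K, Akt and mTOR pathway 16 of 44 genes were higher and 24 lower, with a median of -0.29 over all 45 tested that turned to 0.42 with library size only. Igf1r, the IGF1 receptor, was at 104, 105 and 84.98 CPM against 6.86, 7.69 and 7.27 CPM (log2 fold change 3.75 ± 0.12 SE, adjusted p = 2.61e-07), and the adaptors Irs1 and Pik3r1 fell (-1.91 and -1.42). Pik3r1 was at 111 and 90.2 CPM in libraries 30 and 31, where NICD1/Akt livers averaged 82 CPM on that scale. Trib1, a pseudokinase, was at 111, 108 and 84.4 CPM against 1294, 316 and 1297 CPM (log2 fold change -3.26 ± 0.49 SE, adjusted p = 0.000417), with control library 11 far below the other 2 and libraries 30 and 31 at 39.2 and 41.3 CPM.
Growth factor families had 17 of 35 genes higher and 13 lower. Gas6, the ligand of the Axl and Mertk receptors, was at 264, 277 and 262 CPM against 30.7, 34.2 and 37.5 CPM (log2 fold change 2.97 ± 0.11 SE, adjusted p = 3.72e-07), and Hgfac, which activates HGF, fell (-1.40). Egfr fell against controls of 3 weeks, 1006, 769.6 and 1152 CPM against 2291, 3104 and 2369 CPM, but libraries 30 and 31 had 523 and 443 CPM, below the NICD1/Akt livers. Feedback regulators of ERK were split, 5 higher and 10 lower of 23. Over all 27 tested they were 9 higher and 10 lower, and 12 higher and 4 lower against libraries 30 and 31 (median 0.49). Dusp6, the ERK phosphatase, fell (-2.52) but was at 58.8 and 48.03 CPM in libraries 30 and 31, and Errfi1, an EGFR inhibitor, fell against both, with 893, 536 and 725 CPM in the NICD1/Akt livers, 2703, 2591 and 2627 CPM in controls and 1861 and 1889.8 CPM in libraries 30 and 31.
Wnt pathway genes expressed in both groups were higher in 22 of 38 cases and lower in 5 (median 0.53). Wls, which carries Wnt ligands to the cell surface, was at 61.3, 69.4 and 58.9 CPM against 6.77, 7.08 and 6.93 CPM (log2 fold change 3.19 ± 0.11 SE, adjusted p = 2.61e-07), and Celsr2, a planar polarity cadherin, at 60.01, 51.4 and 51.4 CPM against 0.868, 1.05 and 0.507 CPM (log2 fold change 6.06 ± 0.19 SE, adjusted p = 2.5e-07). Notum, a Wnt deacylase expressed around central veins, fell (-1.83). TGF beta and BMP genes were higher in 21 of 52 and lower in 13. Tgfb2, a TGF beta ligand, was at 142, 143 and 114 CPM against 0.607, 0.262 and 0.676 CPM (log2 fold change 7.99 ± 0.22 SE, adjusted p = 2.28e-07), and Fstl3, an activin inhibitor, at 39.7, 44.7 and 34.8 CPM against 0.868, 0.699 and 0.930 CPM. Hippo pathway and YAP/TAZ target genes were higher in 22 of 38 cases and lower in 6 (median 0.45), with Ajuba, an inhibitor of the Lats kinases, at 41.8, 45.3 and 37.9 CPM against 2.26, 2.19 and 2.20 CPM (log2 fold change 4.23 ± 0.13 SE, adjusted p = 2.5e-07).
Guidance molecules first known from axons were higher in 19 of 32 semaphorin, plexin, slit and netrin genes and lower in 7 (median 0.86), and in 6 of 10 ephrin and Eph genes, with 2 lower. Rgma, a BMP coreceptor that repels axons, was at 101.2, 100.2 and 96.9 CPM against 0.174, 0.874 and 0.254 CPM (log2 fold change 7.82 ± 0.27 SE, adjusted p = 2.7e-07), Sema5a at 55.99, 74.6 and 67.7 CPM against 1.04, 1.14 and 1.69 CPM and Ephb3, a receptor that Wnt signals induce in gut, at 15.7, 19.6 and 17.5 CPM against 0.174, 0.0874 and 0.338 CPM. JAK-STAT and growth hormone genes were lower in 17 of 30 cases and higher in 4 (median -0.65), with a median of 0.16 against libraries 30 and 31.

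Genes of the cytoskeleton were followed by those of transport across membranes. Actin-binding and contractile genes were higher in 43 of 56 cases and lower in 4 (median 1.07). Tmsb10, which binds actin monomers, was at 244, 316 and 242 CPM against 8.76, 7.604 and 9.39 CPM (log2 fold change 4.96 ± 0.16 SE, adjusted p = 2.53e-07), Tagln2 at 400.0, 531 and 432 CPM against 23.9, 22.1 and 29.8 CPM (log2 fold change 4.17 ± 0.17 SE, adjusted p = 6.07e-07) and Marcks at 125, 149.6 and 126 CPM against 15.5, 17.6 and 21.1 CPM. Of 19 kinesin genes outside mitosis 11 were higher, such as Kif3a of intraflagellar transport (2.52), and 3 lower. Rab GTPases were even, 14 higher and 15 lower of 40. Tubulins had 3 of 10 higher and 2 lower, a median of -0.12 over all 12 tested that turned to 0.58 with library size only and 0.74 against libraries 30 and 31, with Tuba1a and Tuba1b higher (2.96 and 2.13) and Tuba4a lower (-1.75).
Ion channels included many genes near 0 in control liver, as 29 of 69 tested passed only through NICD1/Akt livers, and of the 39 expressed in both groups 18 were higher and 9 lower. Ano1, a chloride channel of secretory epithelium, was at 69.4, 85.6 and 81.3 CPM against 1.21, 2.10 and 1.35 CPM (log2 fold change 5.66 ± 0.18 SE, adjusted p = 2.5e-07), and the potassium channel genes Kcnq1 and Kcnk1 were at 70.2, 86.8 and 96.7 CPM against 1.91, 2.10 and 2.37 CPM and 33.5, 42.9 and 41.7 CPM against 0.347, 0.612 and 0.676 CPM. Scnn1a, a subunit of the epithelial sodium channel, fell to 17.05, 9.80 and 22.3 CPM from 72.5, 63.1 and 58.6 CPM. All 5 aquaporins tested were lower (median -1.34, and -0.91 against libraries 30 and 31), including Aqp8 of the canalicular membrane at 49.8, 35.3 and 36.5 CPM against 87.8, 108 and 111 CPM (log2 fold change -1.34 ± 0.16 SE, adjusted p = 0.000108).
Solute carriers, of which 234 were expressed in both groups, were lower in 107 and higher in 57 cases, with a median of -0.16 over all 262 tested that turned to 0.54 with library size only. Slc43a2, a transporter of large neutral amino acids, was at 274, 338 and 296 CPM against 15.2, 12.4 and 14.6 CPM (log2 fold change 4.43 ± 0.14 SE, adjusted p = 2.5e-07), and Slc39a14, a zinc and manganese importer, at 276, 258 and 285 CPM against 989.8, 1044 and 962 CPM (log2 fold change -1.87 ± 0.11 SE, adjusted p = 2.96e-06). ABC transporters were lower in 22 of 38 and higher in 6 cases, with a median of -0.46 over all 40 tested that turned to 0.25 with library size only. Abcb11, the bile salt export pump, was at 155, 122 and 162 CPM against 598, 681 and 507 CPM (log2 fold change -2.02 ± 0.16 SE, adjusted p = 1.32e-05), and Abcc1, an exporter of conjugates that hepatocytes hardly express, at 38.9, 47.7 and 34.8 CPM against 3.04, 3.76 and 2.45 CPM (log2 fold change 3.71 ± 0.19 SE, adjusted p = 1.43e-06).
Neural adhesion and synapse genes expressed in both groups were higher in 7 of 14 cases and lower in 3, and 9 more passed only through NICD1/Akt livers. Lrrn1, a leucine-rich repeat membrane protein, was at 26.5, 26.2 and 25.1 CPM with 2 counts in controls (ratio 452, 95% counting interval 125 to 3734). Adhesion receptors of the G protein-coupled family had 6 of 14 higher and 5 lower, with Adgrg1 (GPR56) at 81.7, 87.5 and 82.1 CPM against 6.77, 6.82 and 6.60 CPM (log2 fold change 3.64 ± 0.09 SE, adjusted p = 2.28e-07). Of 19 Gpr receptors 7 were higher and 5 lower.

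Imprinted genes expressed in both groups were higher in 8 of 16 cases and lower in 3. Grb10, an adaptor that restrains insulin signaling, was at 86.4, 100.9 and 87.5 CPM against 17.2, 17.9 and 19.95 CPM (log2 fold change 2.32 ± 0.11 SE, adjusted p = 9.26e-07), and Peg3 at 114, 125 and 97.9 CPM against 39.7, 37.7 and 42.9 CPM (log2 fold change 1.48 ± 0.11 SE, adjusted p = 1.11e-05). Both were lower still in libraries 30 and 31, at 8.29 and 9.78 CPM and 21.5 and 12.1 CPM. By chromosome, medians of the log2 fold change over all genes tested lay between -0.10 and 0.22 on the autosomes and at 0.29 on the X, where 31.4% of 408 genes were at least 2-fold higher against 26.4% of all genes.
Markers of neighbouring tissues were scarce. Of 16 pancreatic acinar genes 3 passed the filter, of 18 muscle genes 2, of 12 adipocyte genes 5, of 12 mesothelial genes 6 and of 23 intestinal and gastric genes 6. The calls were 2 higher and 1 lower for acinar genes, 1 and 1 for muscle, 2 and 1 for mesothelial and 3 and 1 for gut genes, and those called higher in these lists passed the filter only through NICD1/Akt livers. Of the adipocyte genes 3 were lower and none higher. Cela1, an elastase, fell to 20.6, 15.9 and 24.8 CPM from 67.8, 61.3 and 56.1 CPM, Neb of muscle to 18.2, 9.20 and 17.5 CPM from 57.3, 49.6 and 55.6 CPM, Cidec of lipid droplets to 4.56, 8.07 and 4.07 CPM from 20.7, 14.3 and 23.3 CPM, though it was at 0.597 and 0.503 CPM in libraries 30 and 31, and Fabp2 of the gut to 25.3, 13.2 and 17.7 CPM from 54.8, 44.7 and 59.4 CPM. Guca2a, the gene of guanylin, a peptide of the gut epithelium, had 0 counts in controls and 11.2, 19.1 and 18.3 CPM in the NICD1/Akt livers (at least 186-fold higher). Erythroid genes were lower in 6 of 6 tested (median -1.40). Alas2, the heme enzyme of red cell precursors, was at 12.6, 8.23 and 13.99 CPM against 41.5, 35.2 and 38.3 CPM, and at 12.5 and 17.7 CPM in libraries 30 and 31. The part of blood left in the sampled tissue was not tested.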

How the data were processed

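RNA of 12 mouse liver libraries was sequenced from stranded poly(A) libraries. The authors deposited raw read counts per gene. The submitters' processing notes name STAR 2.7, Subread 2.0.6 and GRCm39, while the methods name STAR and HTSeq with another mouse build, so the build behind the counts is unsettled and no coordinate was taken from them. Symbols came from a table of gene names for 21573 of 21807 gene IDs, with 22 symbols on a pair of IDs. Depth was 14691286 to 19594839 counts in the 6 libraries used.

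The 3 NICD1/Akt and 3 control libraries of 3 weeks were compared with edgeR 4.0.16 (R 4.3.3), using TMM factors and the quasi-likelihood test, 2-sided, on genes with at least 1 CPM in 3 or more of the 6 libraries. P-values were adjusted by Benjamini-Hochberg over all 13052 genes, and genes under 0.05 were called. CPM are TMM-scaled over the 6 libraries, and levels of 2-week controls over 12. Tested on simulated data of this design, the fit recovered 76 of 100 genes changed 2-fold and 100 of 100 changed 4-fold, with 14 calls among 12852 unchanged genes. Folds against 0 counts are lower bounds at a floor of 3 counts over the group, and ratios on 1 to 3 counts have 95% intervals of counting error only. Genes named are the 12 largest changes in each direction (mean of at least 10 CPM in the higher group, no overlap), up to 3 members of each list in each direction by adjusted p (at least 2-fold, mean of at least 5 CPM in the higher group), Notch1 and Akt1, the 5 most variable genes in NICD1/Akt livers, cell type markers, and the 3 genes whose promoters are printed. The group of interest, its lists and this rule were chosen with earlier results of these data known. Reads of paralogs and of overlapping genes may be shared between them. Promoters (RefSeq, GRCm38.p6) were found for 10444 genes tested, and 15 motifs were searched. Sets with under 80% of genes matched got no shares. A few items are not reported here. Shares are given for 7 of the 15 motifs and not for AP-1, TEAD, ETS, CRE, HNF4, C/EBP, D-box and IRF. Alternatives were DESeq2 1.42.0, limma-voom (limma 3.58.1), a likelihood ratio test, other factors, filters, thresholds, thinning, other control samples and leaving out each library. The comparison with control libraries 30 and 31 was added after seeing the data.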

Additional observations from a re-analysis of the deposited data

How the results depend on the processing

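The counts of genes called moved with the scaling and with the controls. With library size only in place of TMM, all fold changes shifted up by 0.71 at the median, 8845 genes were higher and 1278 lower (5452 and 290 by at least 2-fold), and 1991 of the 9434 calls changed sign. With controls of both stages 3240 genes were higher. Upper quartile factors gave 5773 higher (a median over all genes of 0.21 in place of 0.04) and 3473 lower, 62.4% of the called genes against 53.3%. Leaving out each library gave 4690 to 4955 genes higher and 3980 to 4300 lower. DESeq2 (4960 and 4404), limma-voom (4982 and 4412), the likelihood ratio test (5110 and 4412), an adjusted p under 0.01 (4306 and 3539), filterByExpr (5218 and 4432), no filter (5492 and 4464) and counts thinned to the smallest library (5048 and 4340) kept both counts within 1.5 times.

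With library size only, medians changed sign for the Myc network (0.52), clock genes (0.35), cytosolic and mitochondrial ribosomal proteins (0.54 and 0.13), translation factors (0.32), tRNA synthetases (0.32), ribosome biogenesis (0.16), proteasome (0.23), COP and Sec genes (0.21), lysosome (0.56), PI3K pathway (0.42), tubulins (0.58), solute carriers (0.54) and ABC transporters (0.25), and so did Lrat (0.69), Reln (0.50) and Stab2 (0.18). In that scaling Arntl, Cxcl1, Tcf7l1 and Vsig4 missed the threshold.

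Against control libraries 30 and 31, a comparison chosen after seeing the data, 1486 of 9401 calls changed sign. Medians did so for the Myc network (0.13), major urinary proteins (1.98), interferon-stimulated genes (-1.51), immediate early and heat shock genes (0.94), ribosome biogenesis (0.21), the JAK-STAT pathway (0.16) and tubulins (0.74), counting medians of at least 0.1 in size in both comparisons. Others that crossed 0, below that size in at least 1 of the comparisons, were those of Fox factors (-0.07 to 0.56), feedback regulators of ERK (-0.05 to 0.49), MHC class I (0.06 to -0.35), lipid-associated macrophage genes (0.32 to -0.05), mesothelial genes (0.04 to -0.99), Rab GTPases (0.10 to -0.08), the unfolded protein response (-0.81 to 0.01) and serpins (-1.31 to 0.01). Interferon-stimulated genes also changed with controls of both stages (-0.81) and without library 32 in these (-0.72). Single genes that changed sign were 2010003K11Rik (0.43), 3110082I17Rik (0.14), Btg2 (0.60), Cidec (3.21), Col27a1 (0.62), Cxcl1 (5.60), Dnajb1 (0.94), Egfr (0.90), Ern1 (0.19), Ifit2 (-0.82), Il1r1 (1.25), Inhbe (-0.023), Lyve1 (-0.95), Mcm10 (1.48), Mup21 (5.79), Myc (2.06), Ppl (0.16), Psmb9 (-0.17), Srxn1 (0.36), Trib1 (1.22), Tsr1 (0.22) and Xbp1 (0.0098). The cause was not tested. No paired analysis was possible because the groups share no replicate numbers. In the simulated data with 3 libraries a group, genes changed 2-fold were missed more often than those changed 4-fold.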
